A study of Mus musculus with 2 samples.

Results

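The imprinted growth genes examined here are 10 mouse genes that are read mainly from 1 parental copy: Igf2, Dlk1, Peg3, Mest, Plagl1 and Peg10, which are expressed from the paternal copy, and H19, Igf2r, Cdkn1c and Grb10, which are expressed from the maternal copy (Grb10 outside neurons). They were chosen by name, through the gene symbols of the array's probes. Of the 10 genes, 9 had a probe annotated to them alone and 8 were above the detection floor on at least 1 array, out of 13137 genes compared in the whole series. Mest had only a probe that is also annotated to its neighbour Copg2, and Peg3 lay below the floor.

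RNA of the whole embryo proper at E8.5 (embryonic day 8.5) was hybridised to 1-colour CodeLink oligonucleotide arrays. There were 2 samples, 1 array each: a pool of 42 wild-type embryos and a pool of 45 mDom-/- embryos, whose litters were matched per the design text. mDom (mDomino, p400) is the submitters' name for the gene now called Ep400, the ATPase of a chromatin-remodelling complex. The sources used here do not give the kind of mDom allele, the strain or the sex of the embryos. Both groups are pools, so nothing is known of how embryos differed.

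Genomic imprinting marks some genes with DNA methylation in the egg or the sperm, so that the embryo later uses only 1 of its parental copies. Many imprinted genes act on growth before birth. In the mouse, paternally expressed genes tend to promote growth, with Igf2 as the standard example, and maternally expressed genes tend to restrain it, as Igf2r, Cdkn1c and Grb10 do. The genes lie in clusters under shared control regions, where long noncoding RNAs such as H19, Airn, Meg3 and Kcnq1ot1 are made from 1 of the parental copies. The arrays measured total RNA of each gene and did not tell the parental copies apart.

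Intensities are given in multiples of the array median. The log2 ratio is the mDom-/- value over the wild-type value, after both were raised to a floor of 0.541 array medians. Each group had 1 array, so no ratio below has a replicate error or a test, and each describes this pair of pools only. In bulk RNA, fewer cells of a type and less RNA per cell cannot be told apart. As an internal yardstick, the SD of a log2 ratio between the probes of 1 gene was 0.25 over the 1302 genes that had 2 probes above the floor on both arrays. It covers differences between probes on the same pair of arrays only, dim and bright together. Error shared by a whole array and differences between embryos are not in it. The 2 probes of Ep400 itself were below the floor on both arrays (0.215 and 0.470 in wild-type, -0.0295 and 0.0714 in mDom-/-), so they could not check the labels.

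None of the 8 compared members was 2-fold apart between the pools, and none was 1.5-fold apart. Of all 13137 compared genes, 1.77% were at least 2-fold apart (0.845% higher and 0.929% lower in mDom-/-) and 8.43% at least 1.5-fold apart, so a count of 0 among 8 genes is near this background. The members' median log2 ratio was -0.07, against 0.00 for all compared genes, with 3 members above 0 and 5 below. The members farthest apart were Igf2r, 1.47-fold lower, and Plagl1, 1.25-fold lower in mDom-/-. The other 6 were at most 1.14-fold apart by their brighter probe.

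**Figure D1:**
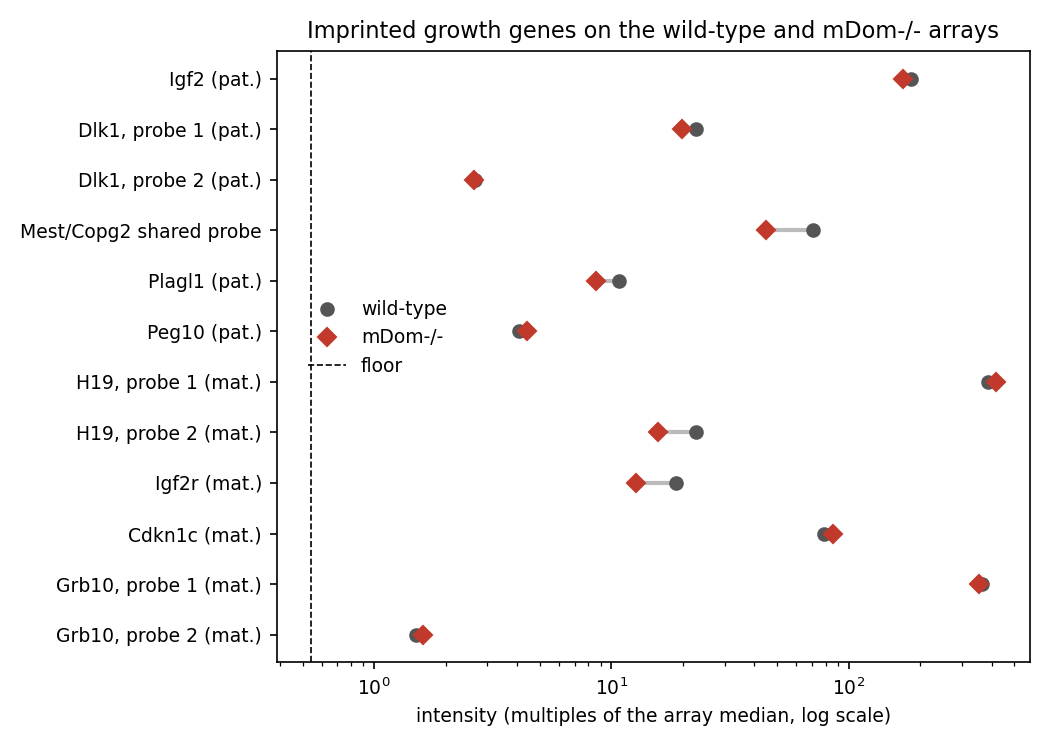
Intensity of each compared probe of the imprinted growth genes on the wild-type array (grey circles) and the mDom-/- array (red diamonds), in multiples of the array median on a log axis. The dashed line is the floor of 0.541, and pat. and mat. mark the expressed parental copy. The symbols nearly touch for Igf2, Peg10, Cdkn1c and Grb10, and stand apart for Igf2r (18.7 and 12.7), the second H19 probe (22.7 and 15.8) and the probe shared by Mest and Copg2 (70.9 and 44.9).

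RefSeq start regions on GRCm38.p6, from 250 bases before to 50 after an annotated start, were listed for 7 members. The 4 below are shown to set the 2 members with the lowest ratios, Igf2r and Plagl1, beside Igf2 and Grb10, whose signal was close in both pools by median scaling. With loess, Igf2 and Grb10 were at -0.25 and Plagl1 at -0.29, so Plagl1 was not set apart from them in every setting. Where a gene had several starts, the window with the most CpG is printed. Letters run 5′ to 3′ on the gene's strand, and capitals mark each CpG, the dinucleotide CG at which imprints are methylated.
Igf2r, chr17:12769657-12769956, minus strand: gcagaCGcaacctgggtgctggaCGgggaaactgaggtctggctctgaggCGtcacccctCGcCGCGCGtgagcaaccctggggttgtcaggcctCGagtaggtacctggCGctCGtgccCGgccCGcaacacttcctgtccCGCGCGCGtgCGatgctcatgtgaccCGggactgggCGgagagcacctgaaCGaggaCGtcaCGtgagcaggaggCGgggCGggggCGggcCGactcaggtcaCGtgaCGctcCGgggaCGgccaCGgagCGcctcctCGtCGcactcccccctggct
Plagl1, chr10:13090582-13090881, plus strand: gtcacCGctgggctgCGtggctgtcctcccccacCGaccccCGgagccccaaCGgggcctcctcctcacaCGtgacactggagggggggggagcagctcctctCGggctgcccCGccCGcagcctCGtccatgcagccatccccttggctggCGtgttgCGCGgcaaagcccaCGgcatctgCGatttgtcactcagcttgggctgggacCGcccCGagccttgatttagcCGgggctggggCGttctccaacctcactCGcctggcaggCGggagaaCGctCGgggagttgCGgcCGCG
Igf2, chr7:142658755-142659054, minus strand: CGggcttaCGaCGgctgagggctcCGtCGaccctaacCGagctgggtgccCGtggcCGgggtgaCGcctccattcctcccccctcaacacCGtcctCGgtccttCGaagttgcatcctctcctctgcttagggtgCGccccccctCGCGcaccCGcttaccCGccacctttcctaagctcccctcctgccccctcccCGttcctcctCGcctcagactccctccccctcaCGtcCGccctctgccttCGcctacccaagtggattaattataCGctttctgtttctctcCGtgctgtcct
Grb10, chr11:12037371-12037670, minus strand: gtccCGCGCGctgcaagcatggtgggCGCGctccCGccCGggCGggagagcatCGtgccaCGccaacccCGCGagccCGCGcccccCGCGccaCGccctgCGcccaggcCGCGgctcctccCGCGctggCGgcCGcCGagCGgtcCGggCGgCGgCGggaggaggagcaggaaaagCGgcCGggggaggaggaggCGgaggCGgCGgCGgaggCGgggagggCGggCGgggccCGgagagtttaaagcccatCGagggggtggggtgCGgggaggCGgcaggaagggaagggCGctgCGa

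These counts are descriptive, since the Igf2 and Grb10 windows were picked as the richest in CpG of 4 and 2 windows, while Igf2r and Plagl1 had 1 window each. The Igf2r window held 34 CpG and the Plagl1 window 26, counts reached by 7.73% and 16.9% of the 32851 windows compared. These windows had the same length and a median of 7 CpG, and did not cover every chromosome. The Grb10 window held 45, reached by 1.93%, and the Igf2 window 24, reached by 20.0%. Over the 13 windows of the 7 members the count ran from 2 to 45, with 24, 14, 7 and 2 at the Igf2 starts, 45 and 9 at the Grb10 starts, 17, 17 and 8 at the Mest starts, 13 for Peg3 and 9 for Dlk1. PLAGL1, a zinc-finger protein, is known to bind the motif GGGGCCCC, which reads the same on both strands and cannot overlap itself. It was present in 1 of the 13 member windows, that of Peg3, and in 1.08% of the 32851 windows compared. The arrays measured neither methylation nor binding at these starts.

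Igf2 encodes the growth factor that drives much of embryonic growth through the IGF1 receptor. Its probe read 182 in wild-type and 170 in mDom-/-, a log2 ratio of -0.10. The genes measured on both arrays were divided into 4 brightness bands of equal size, and in the band of Igf2, 25.7% of 2982 genes had a lower ratio. The Igf2 signal was close in both pools, with a log2 ratio of -0.20 by quantile normalization and -0.25 by loess. Its ratio stayed below 0 in all 8 alternative settings (-0.25 to -0.08). The floor settings and the mean over probes left it unchanged.

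H19, the noncoding RNA that shares enhancers with Igf2 and is made from the other parental copy, had 2 probes that disagreed. The brighter probe read 386 in wild-type and 416 in mDom-/- (log2 ratio 0.11), and the dimmer one read 22.7 and 15.8 (log2 ratio -0.53, 1.44-fold lower). Their gap of 0.64 was matched or passed by 89 of the 1302 genes with 2 probes, or 6.84%. The bright probe itself read below 0 with quantile normalization (-0.08) and loess (-0.10), so no direction can be given for H19.

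Igf2r encodes the receptor that carries IGF2 to the lysosome for degradation and so lowers its supply. Its own probe read 18.7 in wild-type and 12.7 in mDom-/-, a log2 ratio of -0.56. Of the 2981 genes in its brightness band, 2.25% had a lower ratio. This was the lowest ratio among the compared members. It ran from -0.56 to -0.53 over the settings, of which the floor settings and the mean over probes left it unchanged. A probe annotated to both Airn and Igf2r was below the floor on both arrays (-0.203 and 0.302), so the value of Igf2r rests on 1 probe.

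Grb10 encodes an adaptor protein that damps signalling from the insulin and IGF1 receptors. Its bright probe read 366 in wild-type and 354 in mDom-/- (log2 ratio -0.05), and its dim probe read 1.498 and 1.605 (log2 ratio 0.10). Both probes were near equal signal and on opposite sides of it. With loess the bright probe moved to -0.25 and with quantile normalization to -0.22.

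Cdkn1c encodes p57Kip2, a cyclin-dependent kinase inhibitor that slows cell division and whose loss causes overgrowth. Its probe read 78.5 in wild-type and 85.5 in mDom-/-, a log2 ratio of 0.12. Quantile normalization put the ratio at -0.02, so its sign was not settled. Plagl1 encodes a zinc-finger transcription factor known to regulate other imprinted genes. Its probe read 10.7 in wild-type and 8.58 in mDom-/-, a log2 ratio of -0.32, and 11.6% of the 2981 genes in its brightness band had a lower ratio. Unlike that of Cdkn1c, this ratio kept its sign in all 8 alternatives (-0.33 to -0.29). The floor settings and the mean over probes left it unchanged, and quantile normalization and loess both put it at -0.29.

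Dlk1 encodes a transmembrane protein related to Notch ligands that holds back fat cell differentiation. Its bright probe read 22.6 in wild-type and 19.8 in mDom-/- (log2 ratio -0.19), and its dim probe read 2.66 and 2.65 (log2 ratio -0.01). The dim probe gave nearly equal signal, so the small gap of the bright one was not repeated. Peg10, a gene derived from a retrotransposon and needed for the placenta, read 4.07 in wild-type and 4.42 in mDom-/-, a log2 ratio of 0.12. Peg3, which encodes a large zinc-finger protein, read -0.0408 and 0.117, below the floor on both arrays, and gives no ratio.

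Mest, which encodes a member of the alpha/beta hydrolase fold family and is a classic marker of mesoderm, could not be measured on its own. The probe annotated to both Mest and Copg2 read 70.9 in wild-type and 44.9 in mDom-/-, a log2 ratio of -0.66 or 1.58-fold lower. It moved between -0.72 (loess) and -0.64 (75th percentile scaling). Copg2, a coat protein gene that overlaps Mest in the RefSeq annotation, also had its own probe, which read 23.7 and 20.8 (log2 ratio -0.19). The shared probe stood farther from equal signal than Copg2's own probe, but the sources used here do not say which gene's transcript it reports. It is left out of the counts and medians of the members.

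**Figure D2:**
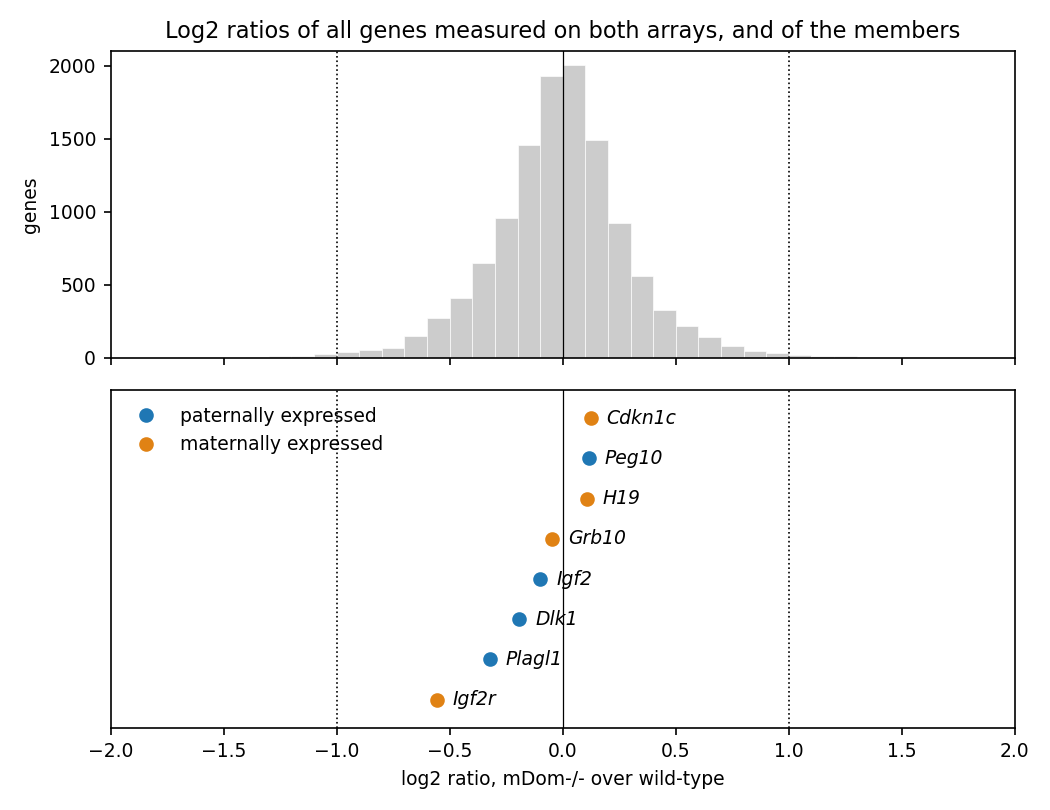
Top, number of genes per 0.1 of the log2 ratio (mDom-/- over wild-type) for the 11926 genes measured on both arrays, with ratios beyond 2 counted in the outermost bars. Bottom, the 8 compared members on the same axis, coloured by expressed parental copy, 1 point per gene by its brightest probe. Dotted lines mark 2-fold. All 8 points lie inside them, from Igf2r at -0.56 to Cdkn1c at 0.12, and both colours occur on both sides of 0.

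By parental copy, the 4 compared paternally expressed members had a median log2 ratio of -0.15 with 1 above 0, and the 4 maternally expressed members a median of 0.03 with 2 above 0. These medians were not tested against each other and were unstable. Counting the Mest and Copg2 probe as Mest, an alternative added after the values were seen, gave -0.19 for the paternal group. Using the second H19 probe, added likewise, gave -0.29 for the maternal group. Quantile normalization and loess put the maternal median at -0.15 and -0.17, beside -0.19 and -0.21 for the paternal one.

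Other imprinted genes had medians close to 0 for both parental copies. Of 64 listed, 51 had a probe of their own and 45 were compared. With 18 above 0 and 27 below 0, none of the 45 was 2-fold apart, against 1.77% of all compared genes. The 18 paternally expressed genes among them had a median of -0.06, from Mkrn3, an imprinted ring-finger gene of the Prader-Willi region (1.07 in wild-type and 0.737 in mDom-/-, log2 ratio -0.53), to Kcnq1ot1 (0.32). The 27 listed as maternally expressed had a median of -0.04, from Pon2 (-0.73) to Meg3 (0.84). These lists do not separate genes imprinted in all tissues from those imprinted only in some. Whether each is imprinted in the E8.5 embryo proper was not measured. With the floor at the 60th percentile the paternal median was 0.05, so its sign was not settled.

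The Dlk1 to Dio3 cluster held the highest ratio among the compared imprinted genes, that of Meg3. Meg3, a noncoding RNA made from the maternal copy, read 21.5 in wild-type and 38.5 in mDom-/- by its brightest probe, 1.79-fold higher, and 99.6% of the genes in its brightness band had a lower ratio. Its other probes, all dimmer, had log2 ratios of 0.69, 0.27 and -0.45, so 3 of 4 were above 0, and the mean over probes was 0.34. Rian, a second maternal noncoding RNA of this cluster, had 3 probes, which read 32.0 and 42.9, 14.1 and 20.2, and 2.38 and 2.97. All 3 Rian probes were higher in mDom-/-, by log2 ratios of 0.42, 0.52 and 0.32. The paternally expressed genes of the cluster read nearer to equal signal. The Dlk1 probes were at -0.19 and -0.01, Rtl1, a retrotransposon-derived gene, was at -0.02, and Dio3 was below the floor. None of these genes reached 2-fold, and the difference between the maternal and paternal genes of the cluster was not tested.

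At the Igf2r locus, the noncoding RNA Airn starts inside Igf2r, runs antisense to it and is known to silence Igf2r on the paternal copy. Its brightest probe read 5.08 in wild-type and 3.80 in mDom-/- (log2 ratio -0.42), and a second probe read 0.986 and 0.725 (log2 ratio -0.44). Both read lower in mDom-/-, on the same side as Igf2r. Another Airn probe was above the floor in mDom-/- only (0.220 and 0.581), on the other side, and the remaining one was below the floor. The strand that each probe detects is not stated in the sources used here. Slc22a2, a transporter gene of this cluster, was above the floor in wild-type only and was at least 1.24-fold lower.

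In the cluster of Igf2, H19 and Cdkn1c, 11 other genes were compared, with 5 above 0, 6 below 0 and a median of -0.01. Phlda2, a maternally expressed gene that restrains growth of the placenta, read 132 in wild-type and 186 in mDom-/-, 1.41-fold higher. Its log2 ratio was 0.50, and 0.36 with loess. Ascl2, a transcription factor gene of the trophoblast, read 2.10 and 2.97, 1.41-fold higher, and Nap1l4, a histone chaperone gene, read 3.44 and 2.32, 1.48-fold lower. Osbpl5 was above the floor in mDom-/- only and was at least 1.42-fold higher. Kcnq1ot1, the noncoding RNA that silences the Cdkn1c domain on the paternal copy, had probes at 0.32 and -0.08, which disagreed in sign. The tetraspanin genes Cd81 and Tspan32 were at -0.09 and -0.18, Slc22a18 at -0.07, Tnfrsf22 at -0.04, Tssc4 at -0.01, and Th, which encodes tyrosine hydroxylase, at 0.25. Cdkn1c at 0.12 thus lay among neighbours on both sides of 0.

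Around Peg10, 9 other genes were compared, with 6 below 0, 3 above 0 and a median of -0.27. Pon2, a paraoxonase gene, read 8.67 in wild-type and 5.24 in mDom-/-, 1.66-fold lower, with 0.604% of the genes in its brightness band at a lower ratio. Calcr, the calcitonin receptor gene, and Pon3 were 1.47-fold and 1.42-fold lower, from wild-type signals of 1.12 and 1.70. Sgce, which shares the imprinted promoter region of Peg10 and is expressed from the same parental copy, read 1.52 and 1.19 (log2 ratio -0.35), against 0.12 for Peg10. Casd1 was at -0.27, Tfpi2 at -0.16, Dlx5 at 0.00, Asb4 at 0.02 and Ppp1r9a at 0.08, with second probes of Dlx5 and Ppp1r9a at -0.10 and -0.08. In the Peg3 cluster, Usp29 was at 0.09 and 0.19 by its probes, and Zim1 lay at the floor in wild-type and below it in mDom-/-. Ddc, next to Grb10, was at -0.17.

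**Figure D3:**
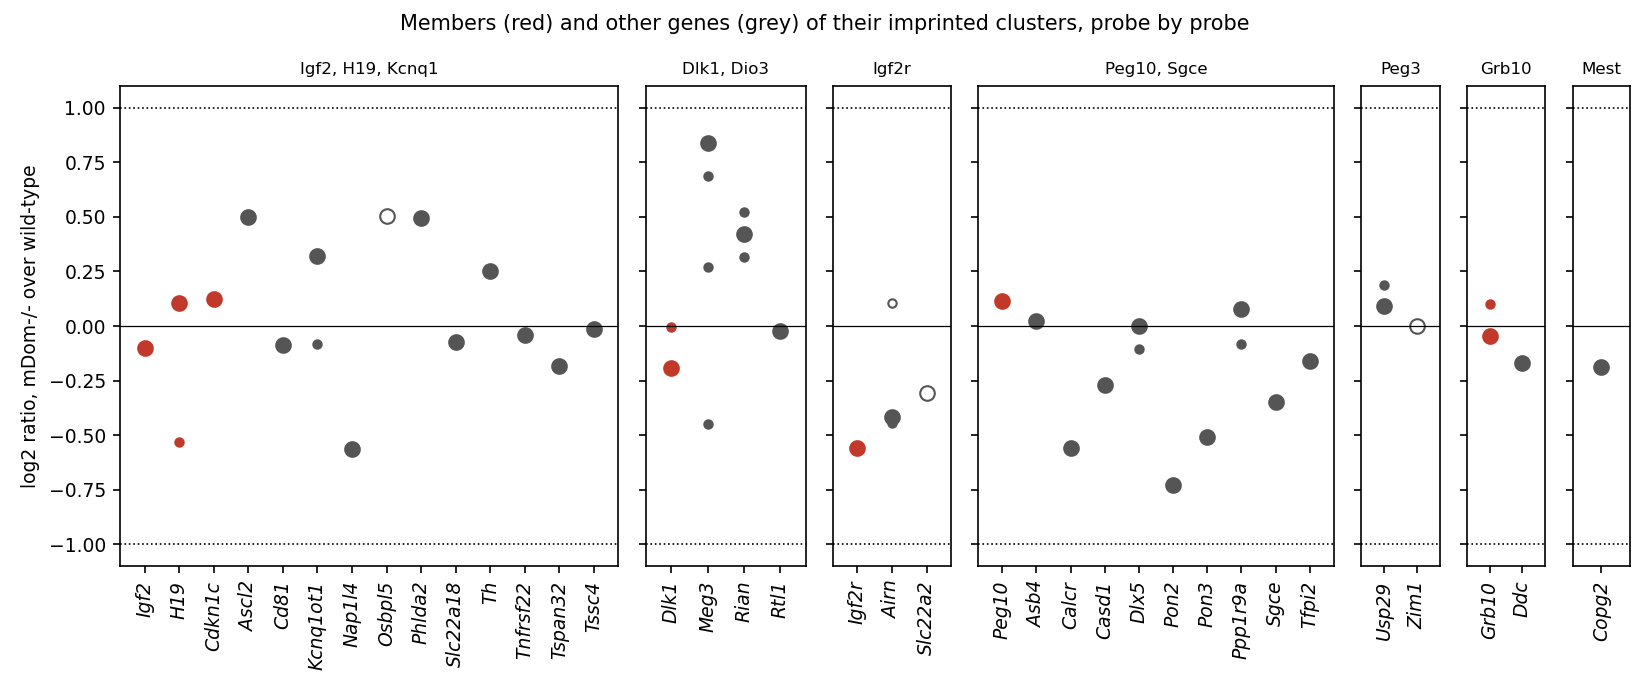
Log2 ratio (mDom-/- over wild-type) of every compared probe in 7 imprinted clusters, members in red and other genes of the cluster in grey. Large symbols are each gene's brightest probe, small symbols its other probes, open symbols bounds with 1 array below the floor, and dotted lines 2-fold. The Rian probes and 3 of the 4 Meg3 probes lie above 0, the 2 Airn probes measured on both arrays lie below 0 with Igf2r, and no probe reaches a dotted line.

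Genes of the insulin-like growth factor pathway, in which IGF2, IGF2R and GRB10 act, also had none 2-fold apart. Of 32 listed, 21 were compared, with 10 above 0, 11 below 0 and a median of -0.10. Of all compared genes, 1.77% were at least 2-fold apart, so a count of 0 among 21 is near this background. Igf1, the sister ligand, was at 0.30, from 3.22 in wild-type to 3.95 in mDom-/-. Igf1r, the receptor that transmits the growth signal of IGF2, read 18.1 and 13.6 by its brighter probe and 5.16 and 4.08 by the other. Both Igf1r probes read lower in mDom-/-, at -0.42 and -0.34, and the insulin receptor gene Insr was at -0.21. By its brightest probe each of these receptor transcripts, like that of Igf2r, read lower in mDom-/-, and none was 1.5-fold apart. Of all 13137 compared genes, 6638 were below 0, and the ratio of Insr was smaller than the yardstick of 0.25. Another receptor gene of the list was below the floor.

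Inside the cell, 3 signalling genes of the 21 compared were at least 1.5-fold apart, against 8.43% of all compared genes. They were Grb14 (2.80 and 1.71, 1.64-fold lower) and Grb7 (7.77 and 12.05, 1.55-fold higher), relatives of Grb10, and the docking protein gene Gab1 (3.14 and 1.93, 1.63-fold lower). The Grb10 family thus held ratios on both sides of 0, with Grb10 itself at -0.05. Among the genes of IGF binding proteins, which hold IGFs outside the cell, 6 of 8 were compared, with a median of -0.08. Igfbp4 read 11.6 and 8.23 (log2 ratio -0.50), Igfbp5 read 84.0 and 74.2 (log2 ratio -0.18, and 0.24 by a dim second probe), and Igfbp2 read 72.9 and 73.0, equal signal. The highest of these measured on both arrays was Igfals, whose product stabilises circulating IGF complexes, at 0.10. The RNA-binding protein genes Igf2bp1 and Igf2bp3, named for binding Igf2 mRNA, were at 0.09 and -0.31, with a second Igf2bp1 probe at -0.36.

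**Figure D4:**
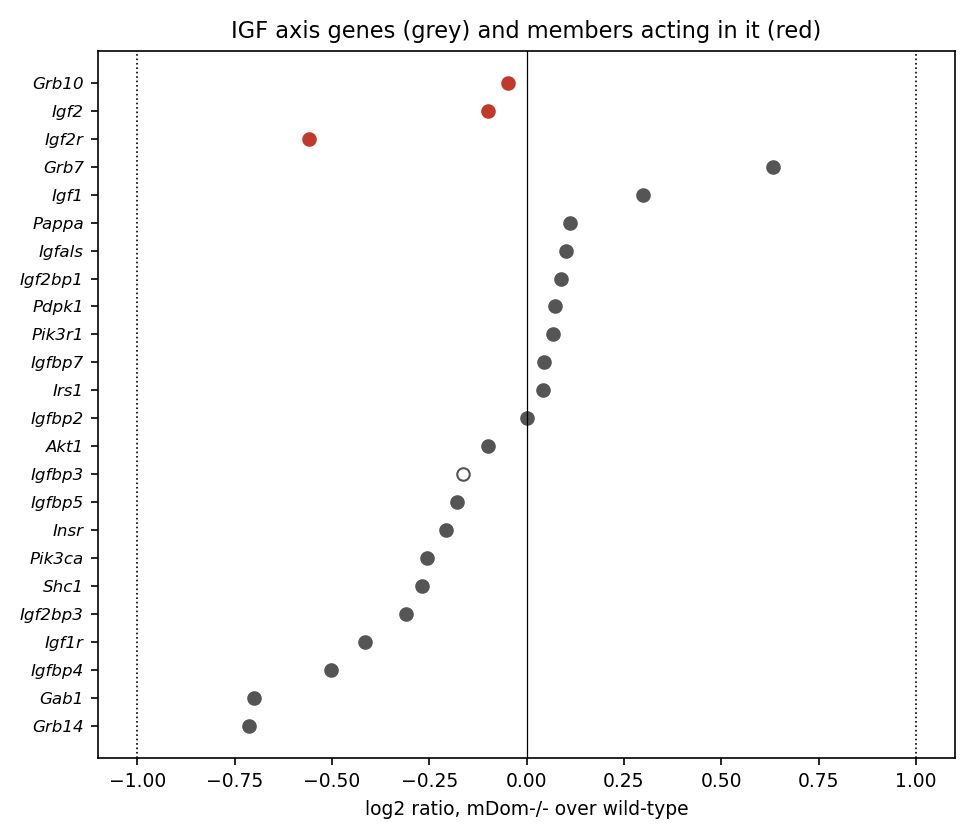
Log2 ratio (mDom-/- over wild-type) of the 21 compared genes of the insulin-like growth factor pathway (grey, in order of ratio) and of Igf2, Igf2r and Grb10 (red, top), 1 point per gene by its brightest probe. The open symbol is a bound and dotted lines mark 2-fold. The grey points run from -0.71 (Grb14) to 0.63 (Grb7), and Igf2r at -0.56 lies near their lower end.

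None of the compared relatives of Cdkn1c, Dlk1 and Plagl1 reached 2-fold, against 1.77% of all compared genes. For those given as bounds this is not settled. Among the other cyclin-dependent kinase inhibitor genes, 4 were compared: Cdkn1a, which encodes p21, was 1.51-fold higher in mDom-/- (1.88 and 2.84), Cdkn2b was at 0.46 and Cdkn2d at 0.33, and Cdkn2c was above the floor in wild-type only and at least 1.77-fold lower. Cdkn1c, at 0.12, was the closest to equal signal of these 5 genes, but also the brightest. Ratios spread more widely among dim genes, with an SD from the median absolute deviation of 0.35 in the dimmest brightness band and 0.19 in the brightest. Among Notch ligand genes, to which Dlk1 is related, Dll1 was 1.53-fold lower (0.896 and 0.585) and Dll3 was at 0.11. The Plagl1 relatives Plag1 and Plagl2 were dim, Plag1 at -0.16 and Plagl2 at least 1.47-fold lower.

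Genes that maintain imprints had a median of -0.09 over 10 compared, with none 2-fold apart, against 1.77% of all compared genes. Dnmt1, the maintenance DNA methyltransferase gene, read 62.8 and 54.1 (log2 ratio -0.22). Its partner Uhrf1 read 73.9 and 74.1 by the brighter probe (log2 ratio 0.00), and a second probe was at -0.33. Trim28, a corepressor that protects imprints, read 232 and 257 (0.15, and -0.02 with loess). Smchd1, a silencing protein gene, was the lowest measured on both arrays, at -0.45 with a second probe at -0.32. Ctcf, the insulator protein that binds the Igf2 and H19 control region, was at 0.01.

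The pools also differed in markers of tissues that express imprinted genes. Somite and presomitic mesoderm markers were present and close in both pools (7 of 7 compared, median 0.09, summed signal 103 in wild-type and 107 in mDom-/-), and their presence matches the label of embryo proper. Of all 13137 compared genes, 0.929% were at least 2-fold lower in mDom-/-, the background for the counts that follow. Neural tube markers (6 of 7 compared, Sox2 below the floor) had 3 at least 2-fold lower. They were Zic1 (log2 ratio -1.74), En2 (-1.54) and Hes5 (-1.50). The list had 1 marker above 0, a highest ratio of 0.09, a median of -0.94 and sums of 43.8 and 25.7. Heart markers (6 of 7, Myh6 below the floor) had 2 at least 2-fold lower, Myl2 (-1.52) and Myh7 (-1.44). With 2 above 0 and 4 below, their median was -0.10 and their highest ratio 0.08. Their sums, set mainly by the brightest marker, were 434 and 437. Endothelial markers (6 of 7, Cdh5 below the floor) had 2 at least 2-fold lower, Emcn (-1.09) and Pecam1 (at least 2.11-fold, below the floor in mDom-/-). Their median was -0.91, their highest ratio -0.18 and their sums 53.2 and 39.2. With the floor at the 60th percentile, Hes5 and Myh7 no longer reached 2-fold, at -0.82 and -0.90, and Pecam1 was not compared. Primitive red cell markers (6 of 7, Hbb-bh1 without a probe of its own) had 3 at least 2-fold lower. They were Hbb-y (-4.71), Hba-x (-3.15) and Alas2 (-1.15). The list had a highest ratio of -0.01, a median of -0.80 and sums of 351 and 40.5.

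Yolk sac and placental RNA, in which Igf2, H19, Peg10 and Phlda2 are known to be abundant, could be carried along at dissection. Visceral endoderm and yolk sac markers gave signal in both pools (10 of 11 compared, Amn below the floor). Of these, 4 were above 0 and 6 below, with ratios from -0.74 to 0.79. None was 2-fold apart, against 1.77% of all compared genes. Their median was -0.15, while their sums were 602 in wild-type and 691 in mDom-/-. A sum is set mainly by the brightest markers, so it and the median differed in direction. Of the trophoblast and decidua markers, 6 of 11 were compared, with Ctsq and Tpbpa below the floor and 3 without a probe of their own. Only 4 were above the floor in both pools, and the rest of those compared in wild-type only. Their sums were 42.5 and 39.96, their median -0.04, and their ratios ran from -0.94 to 0.18. The lowest ratio is a bound, so whether that marker was 2-fold apart is not known. Most of the trophoblast and decidua sum came from Plac1, a trophoblast gene (24.0 and 20.4), and Prl8a2, a decidual prolactin gene (11.1 and 12.3). The part of any of these tissues in the ratios of the imprinted genes was not tested.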

How the data were processed

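Total RNA of 2 embryo pools, grouped by sample title, was measured on 1 array each. Per the labels, images were analysed with the CodeLink software. The deposited values are intensities on a linear scale, apparently scaled per array (medians of 1.05 in both columns, negative values present). Background correction, scaling and flags are not stated there. The code -9999 was read as no value (105 wild-type and 106 mDom-/- probes).

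Of 36227 probes, 21615 had 1 gene symbol in the platform annotation, 681 several and 13931 none listed. Symbols were updated through the RefSeq table of GRCm38.p6, which held the Entrez identifiers of 21487 probes. Probes with several symbols named no gene. The build behind the probes is unknown here, so they have no coordinates.

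The intensities of each array were divided by their median and raised to the higher of the 40th percentiles of both arrays. Log2 ratios were taken as mDom-/- minus wild-type. A probe was compared if above the floor on 1 array (23048 probes), and measured on both if above it on both. With 1 array below the floor, the fold is a bound. A gene was represented by its brightest probe (mean log2 intensity). Brightness bands of 25% each were formed from the 11926 genes measured on both arrays. The code was tested on simulated data. Python 3.11.15, pandas 2.3.3, numpy 2.4.6 and statsmodels 0.14.6 were used.

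The members and all lists were chosen with earlier results of these data known. Named genes were the members, all compared genes of their clusters, and in the other lists each gene at least 2-fold apart and the highest and lowest ratio measured on both arrays, with marker genes named only where at least 2-fold apart. Others in the text were named after their values were seen: Igf1, Igf1r, Insr, Gab1, Igfbp2, Igfbp5, Igf2bp1, Igf2bp3, Cdkn2b, Cdkn2c, Plagl2, Dnmt1, Uhrf1, Ctcf, Plac1 and Prl8a2. The alternatives were 4 scalings, 3 floor settings, the mean over probes and 2 other size rules, besides those marked as added. The number of arrays limits the precision.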

Additional observations from a re-analysis of the deposited data

How the results depend on the processing

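Each of the 8 compared members was recomputed under 8 planned settings of scaling, floor and probe rule. Of these 64 log2 ratios, 63 moved by less than the yardstick of 0.25. The exception was H19, at -0.21 with the mean over its probes and at -0.53 by its second probe, an alternative added after the data were seen, which also moved the median of the maternally expressed members to -0.29. The sign of H19, Cdkn1c and Grb10 changed in at least 1 setting, and that of Igf2, Dlk1, Plagl1, Peg10 and Igf2r in none of the 8. No member passed 1.5-fold, 2-fold or 3-fold in any setting where each was tried. Of the other imprinted genes, 2 were at least 2-fold apart with the floor at the 25th percentile and 3 with no floor, and 2 were at least 1.5-fold apart. Of the IGF pathway genes, 1 was 2-fold apart with no floor and 3 were at least 1.5-fold apart. Over all compared genes, the 2-fold count rose likewise, from 233 to 1055 with the floor at the 25th percentile and 2329 with none. The share of all compared genes at least 1.5-fold apart was 8.43%. For other genes named or extreme in their lists, 515 of 524 log2 ratios moved by less than the yardstick, and many of these likewise could hardly move. The 9 exceptions were Meg3 with the mean over its probes (0.34), and Osbpl5 and Zim1, dim on 1 array, which moved with the floor, to 1.68 and -1.18 at the 25th percentile and 2.76 and -2.14 with none, and 3 markers. Pecam1 was at -2.25 and -2.51 in the same settings and was not compared with the floor at the 60th percentile, where Hes5 and Myh7 were bounds below 2-fold, at -0.82 and -0.90. The median of the IGF pathway genes was 0.00 with the floor at the 60th percentile. Genes below the floor on both arrays, such as Peg3 and Dio3, are limited by signal over background. No paired analysis was possible because each group has 1 array.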
